A study of Mus musculus with 8 samples.

Results

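Mid1, Mid2 and Igbp1 are 3 genes of one protein phosphatase pathway, measured here by 10 of the 45037 probe sets on each array: 3 probe sets for Mid1, 2 for Mid2 and 5 for Igbp1. A probe set is a group of short probes read together as 1 value. The members are all probe sets whose gene symbol, as the deposited table gives it, is one of these names. RNA came from mouse knees at 8 weeks of age, from tibial plateaus in which articular cartilage and the bone under it were dissected in 1 piece. The groups were 4 wild-type C57BL/6 mice and 4 Anp32a knockout mice, 1 mouse per array. The labels give no strain for the knockout mice, no sex for either group and no description of the deleted allele. The genes were selected on a measured value, the known genotype difference of the brightest Mid1 probe set in these arrays, so the genotype differences of all members are given as descriptions, without a test.

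Mid1 and Mid2 encode closely related E3 ubiquitin ligases of the tripartite motif (TRIM) family that sit on microtubules. Through a B-box domain they bind alpha4, the protein made from Igbp1, and alpha4 holds the catalytic subunit of protein phosphatase 2A (PP2A), a major serine/threonine phosphatase. MID1 in this complex marks the PP2A catalytic subunit for degradation, and loss of MID1 in humans causes Opitz syndrome, a disorder of midline structures. Alpha4 also binds the catalytic subunits of the related phosphatases PP4 and PP6. The protein of the deleted gene, ANP32A, is itself known as a PP2A inhibitor. In the laboratory mouse Mid1 crosses the boundary of the pseudoautosomal region, the stretch of sequence that the X and Y chromosomes share.

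All 3 genes lie on the X chromosome in the mouse annotation. The start regions held for them in RefSeq (GRCm38.p6) are shown because Mid1, whose probe sets gave unlike readings, has more than 1 annotated start there. Each window runs from 250 bases before to 50 bases after a start, in lower case, with every CG dinucleotide in capitals.
Mid1, start farthest upstream (chrX:169684949-169685248, + strand): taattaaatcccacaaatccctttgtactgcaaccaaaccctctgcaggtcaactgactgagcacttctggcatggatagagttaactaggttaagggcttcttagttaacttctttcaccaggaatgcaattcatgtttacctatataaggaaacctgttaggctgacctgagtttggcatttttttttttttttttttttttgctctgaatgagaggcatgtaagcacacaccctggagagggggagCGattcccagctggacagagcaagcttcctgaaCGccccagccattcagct
Mid1, middle start (chrX:169827909-169828208, + strand): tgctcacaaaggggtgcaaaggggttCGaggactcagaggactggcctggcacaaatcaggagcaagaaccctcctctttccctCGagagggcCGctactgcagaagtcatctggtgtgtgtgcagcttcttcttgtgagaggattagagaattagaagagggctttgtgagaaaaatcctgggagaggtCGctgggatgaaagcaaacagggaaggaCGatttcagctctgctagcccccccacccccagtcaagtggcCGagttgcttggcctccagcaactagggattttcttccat
Mid1, start farthest downstream (chrX:169879369-169879668, + strand): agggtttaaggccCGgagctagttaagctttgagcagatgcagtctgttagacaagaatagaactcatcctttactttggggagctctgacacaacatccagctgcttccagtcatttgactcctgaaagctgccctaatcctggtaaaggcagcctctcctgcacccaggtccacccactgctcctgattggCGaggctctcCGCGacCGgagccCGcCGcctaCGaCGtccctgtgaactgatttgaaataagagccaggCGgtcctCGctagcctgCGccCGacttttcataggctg
Mid2 (chrX:140664706-140665005, + strand): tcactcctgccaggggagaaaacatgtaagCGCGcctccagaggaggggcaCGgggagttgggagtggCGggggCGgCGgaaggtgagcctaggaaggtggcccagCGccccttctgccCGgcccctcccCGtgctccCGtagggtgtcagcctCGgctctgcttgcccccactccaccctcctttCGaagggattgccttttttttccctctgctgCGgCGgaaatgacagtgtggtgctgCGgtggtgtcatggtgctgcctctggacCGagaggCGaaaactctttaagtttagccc
Igbp1 (chrX:100494041-100494340, + strand): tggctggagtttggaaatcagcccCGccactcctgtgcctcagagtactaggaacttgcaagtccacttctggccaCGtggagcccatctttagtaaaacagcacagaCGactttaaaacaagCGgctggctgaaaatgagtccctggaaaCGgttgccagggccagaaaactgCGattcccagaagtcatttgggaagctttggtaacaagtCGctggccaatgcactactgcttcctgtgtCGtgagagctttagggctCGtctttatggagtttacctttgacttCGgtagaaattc
The 3 Mid1 windows held 2, 6 and 13 CG dinucleotides in the order shown, the Mid2 window 17 and the Igbp1 window 10, against a median of 7 over all 32851 windows of 300 bases. The Mid1 window farthest upstream had a GC content of 43.7%, the lowest of the 5, and the Mid2 window the highest, at 63.3%. TATAAA and TATATAA were searched on both strands. TATATAA occurred in the Mid1 window farthest upstream, on the strand of the gene, and neither string occurred in the other 4, while 15.1% of all windows held at least 1 of them. The deposited files do not say which start or which part of a transcript a probe set reads, so no value below belongs to one of these starts.

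The targeted gene was read first, as a check of the labels. Probe set 1450407_a_at of Anp32a read 9.95, 9.91, 9.76 and 9.91 on wild-type arrays 1 to 4 and 4.98, 4.05, 4.33 and 5.04 on knockout arrays 1 to 4, and was absent on all 4 knockout arrays. The difference was -5.28 on the log2 scale (limma adjusted p = 5.9e-06 among the 45037). Both remaining Anp32a probe sets stayed present on all arrays, at -0.51 and -0.45 (limma adjusted p = 0.0555 and 0.0641). The labels do not say which part of Anp32a was deleted or whether these 2 lie in it. Between 57.6% and 60.1% of the probe sets of an array were called present, and pairs of arrays within a genotype had correlations between 0.991 and 0.997, taken over probe sets and given as a description. Knockout 2 and knockout 3 stood apart from the other 6 arrays on the first principal component, which held 52.8% of the variance. They were at 44.0 and 44.5 and knockout 1 at 11.3, while knockout 4, at -11.9, lay inside the wild-type range of -36.7 to -9.88.

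Mid1 read higher in the knockout on 1 of its 3 probe sets. All values are log2 expression values made with RMA (robust multi-array average), so a difference of 1 is a doubling. Probe set 1438239_at of Mid1 read 6.79, 6.83, 6.95 and 6.73 on wild-type arrays 1 to 4, and 7.84, 8.60, 8.51 and 8.24 on knockout arrays 1 to 4. The groups did not overlap, and the lowest knockout value lay 0.89 above the highest wild-type value. The level was 8.30 ± 0.34 (SD, n = 4) in knockout and 6.82 ± 0.09 (SD, n = 4) in wild type, a difference of 1.47 or 2.78-fold, as the authors' deposited table also gives it (log2 fold change 1.47). Knockout 1 read lowest of the knockouts, and the knockout values were spread over a wider range than the wild-type values. The probe set was called present on 3 wild-type arrays, marginal on wild type 2 and present on all 4 knockout arrays, so it was measured on both sides. Over all probe sets, 18 others had a difference of at least this size, which is 0.0400%. Of these others 4, or 0.00888% of all probe sets, were higher in the knockout, with Mid1 1438239_at itself not counted.

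The other 2 Mid1 probe sets gave no such difference and were hardly detected. Probe set 1422055_at read 4.78, 4.79, 4.76 and 4.91 in wild type and 4.61, 4.81, 4.87 and 4.84 in knockout. No array called it present, 1 array of each genotype called it marginal, and the groups overlapped with a difference of -0.027. Probe set 1443666_at was absent on all 8 arrays, at 4.40 ± 0.15 in wild type and 4.58 ± 0.20 in knockout (SD, n = 4), which leaves it with a bound and no fold. The Mid1 difference thus rests on 1 probe set. In the limma fit of all probe sets 24 passed, 0.0533%, of which 9 were higher (0.0200%) and 15 lower (0.0333%) in the knockout. They belonged in part to 17 named genes, of which 10 had 2 or more probe sets, and in 1 of these 10 more than 1 passed. In that count a probe set that missed the threshold need not read differently. Both remaining Anp32a probe sets, present on all arrays, were also lower without overlap between the groups. The other 2 Mid1 probe sets were unlike these, since no array called them present and their groups overlapped.

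**Figure D1:**
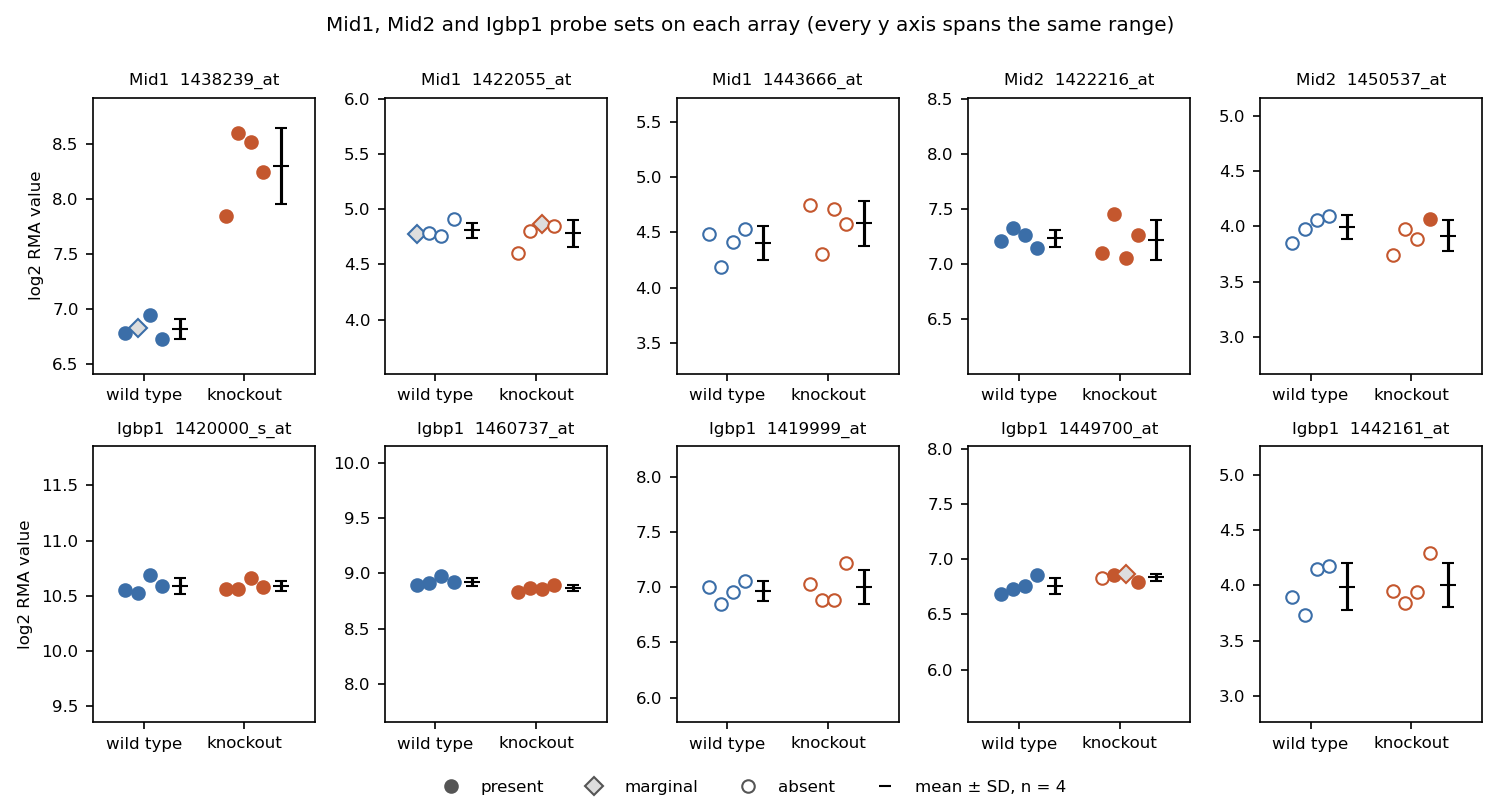
Log2 RMA value (y axis) of each of the 10 member probe sets on each wild-type and knockout array, arrays 1 to 4 from left to right, with the mean and SD of the group beside the points. Filled points are present calls, grey diamonds marginal and open points absent. Every panel spans the same range, and the groups are apart in the first panel, Mid1 1438239_at, and overlap in the other 9.

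Mid2, the close relative of Mid1 that can also bind alpha4, was detected by 1 of its 2 probe sets, with overlapping values in the genotypes. Probe set 1422216_at was present on all 8 arrays, at 7.21, 7.33, 7.26 and 7.14 in wild type and 7.10, 7.46, 7.06 and 7.26 in knockout. The means were 7.23 ± 0.08 and 7.22 ± 0.18 (SD, n = 4), a difference of -0.016 that was smaller than either SD. Knockout 2 read highest and knockout 3 lowest of all 8 arrays, so the knockout values lay on both sides of the wild-type values. Probe set 1450537_at read 3.99 ± 0.11 in wild type and 3.92 ± 0.14 in knockout (SD, n = 4) and was absent on every array but knockout 4, which called it present at 4.07. The file lists the same source sequence for both Mid2 probe sets.

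Igbp1, the gene of alpha4, was the best detected of the 3 genes and differed little between genotypes on any probe set. Probe set 1420000_s_at was present on all 8 arrays, at 10.55, 10.53, 10.69 and 10.59 in wild type and 10.56, 10.57, 10.66 and 10.58 in knockout. The difference was 0.0029, and the 8 values fell within a range of 0.17. In Affymetrix naming, the ending _s_at marks probes that match several transcripts, so this probe set may not read Igbp1 alone. Probe set 1460737_at, also present on all 8 arrays, read 8.89, 8.91, 8.98 and 8.92 in wild type and 8.83, 8.87, 8.85 and 8.90 in knockout. Its difference was -0.061, and the groups overlapped by a single pair, since knockout 4 lay just above wild type 1.

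The other 3 Igbp1 probe sets were dimmer or undetected. Probe set 1449700_at read 6.76 ± 0.07 in wild type and 6.84 ± 0.03 in knockout (SD, n = 4), a difference of 0.078 with overlapping groups. It was present on 4 wild-type arrays and on 2 knockout arrays, with knockout 1 absent and knockout 3 marginal, although those 2 arrays read 6.83 and 6.86, within or just above the wild-type range of 6.69 to 6.86. Its calls and its levels therefore gave opposite orders. Probe sets 1419999_at and 1442161_at were absent on all 8 arrays, at levels of 6.84 to 7.21 and 3.74 to 4.29 over both groups. Of the 5 Igbp1 probe sets, 3 (1419999_at, 1420000_s_at and 1449700_at) carry the same source sequence in the file, and of these 1 was detected on all arrays, 1 on some and 1 on none. The related gene Igbp1b, on chromosome 6 and named after its values were seen, was absent on all 8 arrays (4.55 ± 0.10 in wild type and 4.62 ± 0.04 in knockout, SD, n = 4).

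Over the 10 member probe sets, 3 were present on all arrays, 3 absent on all and 4 had mixed calls. The groups did not overlap for 1 of 10, against 9.42% of all probe sets, and 4.35% with the knockout higher. Apart from that one, the differences ran from -0.078 to 0.18, and from -0.13 to 0.28 when any 1 array was left out. A difference smaller than 0.2 in size was seen for 9 of the 10 and for 78.5% of all probe sets. These counts describe members chosen with this contrast in view, and nothing is read from them.

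**Figure D2:**
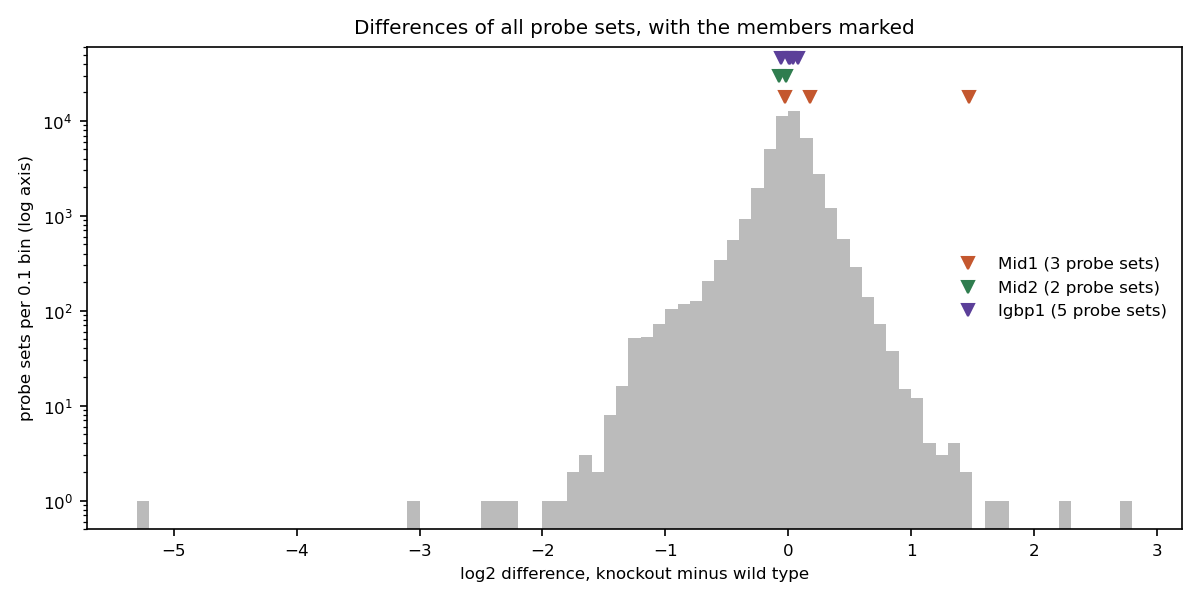
Number of probe sets (y axis, log scale) by log2 difference, knockout minus wild type (x axis, bins of 0.1), for all 45037 probe sets, with triangles for the members, whose height has no meaning. Mid1 1438239_at lies at 1.47 in the right tail, and the other 9 members lie between -0.078 and 0.18, in the centre.

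The tissue holds several cell types, and the means of some marker lists were apart between the genotypes. In bulk tissue, fewer cells of a type and less RNA per cell cannot be told apart. The defining genes of cartilage were strongly detected: all 15 measured chondrocyte markers were present on all 8 arrays, and the mean of the list ran from 12.96 to 13.35 in wild type and from 12.98 to 13.52 in knockout. The mean of 10 osteoblast and osteocyte markers ran from 11.44 to 11.59 in wild type and from 11.63 to 11.92 in knockout, without overlap, and 8 of the 10 genes read higher in the knockout. Likewise 12 osteoclast markers had a mean of 9.73 to 9.96 in wild type and 10.07 to 10.41 in knockout, with 11 of 12 higher. For 15 B cell and plasma cell markers the mean was 8.61 to 8.99 in wild type and 9.06 to 9.84 in knockout, with 14 of 15 higher and Pax5 absent on all arrays. None of the genes of these 4 lists passed limma over all genes (adjusted p = 0.129 to 0.998), while at an unadjusted p under 0.05 the counts were 1 of 15, 5 of 10, 9 of 12 and 9 of 15, against 19.4% of all genes.

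Skeletal muscle markers read lower in the knockout, most of all on knockout 2 and knockout 3. The mean of 18 muscle genes ran from 13.96 to 14.22 in wild type, and was 13.82, 12.59, 13.17 and 13.99 on knockout arrays 1 to 4. All 18 read lower in the knockout and were present on all 8 arrays, and the groups did not overlap for 7 of them, against 2072 of all 20666 genes. At an unadjusted p under 0.05 there were 16 of 18, all lower, the highest count of the 10 marker lists, and none passed limma over all genes (adjusted p = 0.169 to 0.549). The muscle mean lay below every wild type on knockout arrays 1, 2 and 3 and inside the wild-type range on knockout 4. The Mid1 difference was 1.22 without knockout 2 and knockout 3 together, a choice made after the data were seen, and 1.37 to 1.63 when any 1 array was left out.

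The means of the other 5 marker lists overlapped between genotypes. For 15 erythroid genes, of which Hba-a1 was absent on all arrays, the mean was 8.97 to 10.38 in wild type and 9.68 to 10.95 in knockout. The erythroid list mean was 0.73 higher in the knockout, with 14 genes higher and 1 lower. At an unadjusted p under 0.05 there were 6 of 15, all higher, against 19.4% of all genes. None of the 15 passed limma over all genes (adjusted p = 0.188 to 0.779). The mean of the 11 neutrophil genes was 12.19 to 12.81 in wild type and 12.40 to 13.13 in knockout. The mean of the 9 macrophage genes was 9.86 to 10.14 in wild type and 9.57 to 10.02 in knockout. The mean of the 8 endothelial genes was 8.97 to 9.31 in wild type and 8.88 to 9.22 in knockout. For 7 adipocyte genes, of which Lep was absent on all arrays, the mean was 11.26 to 11.85 in wild type and 10.98 to 11.95 in knockout. Higher in the knockout were 11 of 11 neutrophil, 2 of 9 macrophage, 2 of 8 endothelial and 1 of 7 adipocyte genes.

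Fitted beside the mean of a marker list, the Mid1 difference kept its sign and changed in size. The osteoblast, osteoclast and B cell lists were added to this set after the data were seen. The difference was 1.44 with the chondrocyte mean, 1.56 with the erythroid mean, 1.19 with the muscle mean, 1.38 with the B cell and plasma cell mean and 1.11 with the osteoclast mean. With the osteoblast and osteocyte mean, which separated the genotypes as Mid1 did, it was 0.94, the smallest of these values. The other members moved too: with that mean the Mid2 probe set 1422216_at was at -0.27, the Mid1 probe set 1443666_at at 0.56 and the Igbp1 probe set 1442161_at at 0.34, the last 2 absent on all arrays. With the B cell and plasma cell mean 1422216_at was at 0.17 and 1443666_at at -0.00026. On the log2 scale the summed level of the osteoblast and osteocyte list was 16.04 to 16.10 in wild type and 16.16 to 16.34 in knockout, that of the osteoclast list 15.18 to 15.38 and 15.41 to 15.87, that of the B cell and plasma cell list 13.59 to 13.89 and 13.81 to 14.44, and that of the muscle list 18.41 to 18.57 and 17.32 to 18.40. The B cell sums overlapped, and the other 3 did not. The part of these cell types in the Mid1 difference was not tested.

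**Figure D3:**
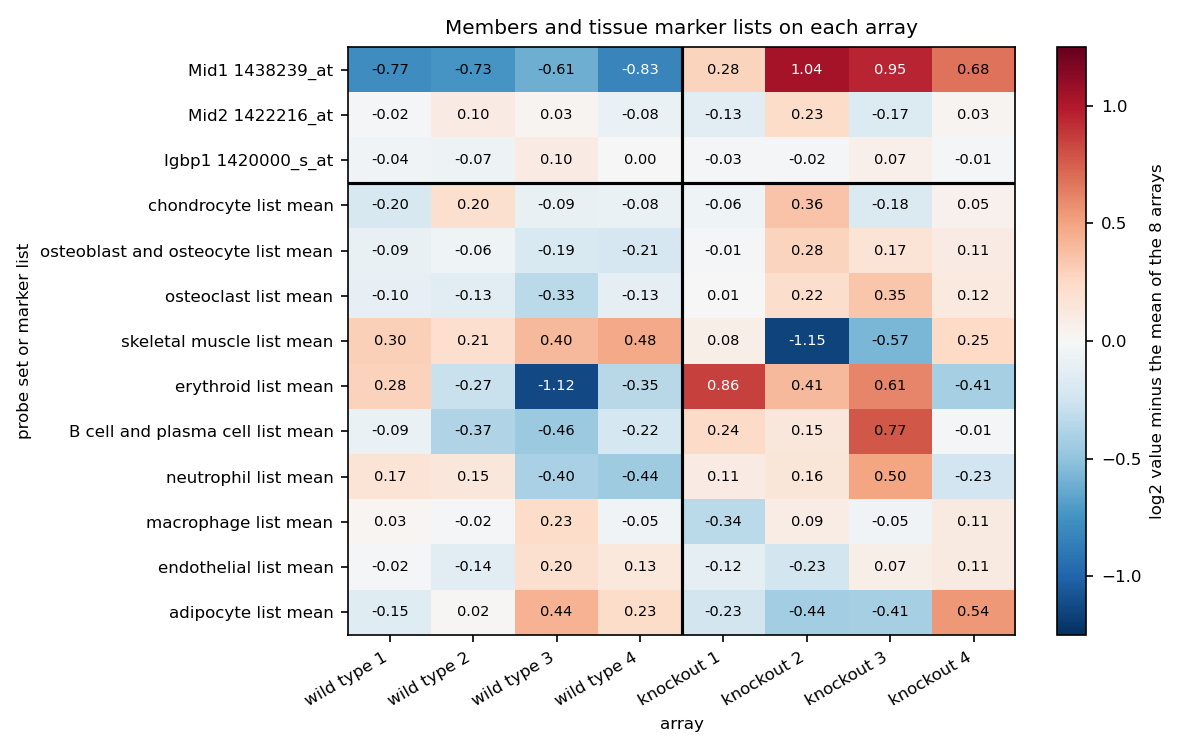
Log2 value minus the mean of the 8 arrays (colour and printed number) for the brightest probe set of each member gene and for the means of 10 marker lists (rows), on each array (columns). The Mid1 row separates the genotypes, the Mid2 and Igbp1 rows stay near 0, and the muscle row is lowest on knockout 2 and knockout 3.

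Apart from the members, for which no test is given, no measured X gene passed the threshold in the limma fit of all genes. The annotation placed 642 measured genes on X, each read by its brightest probe set. The median difference of the X genes was 0.017, against 0.013 over all genes, and the groups did not overlap for 9.35% of X genes and 10.6% of the genes placed elsewhere. Of the 5 measured genes before Mid1 in chromosome order and the 2 after it, none passed (limma adjusted p = 0.169 at lowest). Hccs, the measured gene just before Mid1, which encodes holocytochrome c synthase, read 9.83 in knockout and 10.08 in wild type (difference -0.24, limma adjusted p = 0.195). Prps2, a phosphoribosyl pyrophosphate synthetase gene, read 0.30 higher without passing (limma adjusted p = 0.2).

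Erdr1, a gene of the pseudoautosomal region and the last measured gene beyond Mid1, varied widely among the arrays. Its values come from probe set 1452406_x_at, and whether those probes read Erdr1 alone was not tested. The probe set read 11.61, 11.16, 12.18 and 11.62 in wild type and 12.09, 12.25, 12.67 and 12.22 in knockout. The groups overlapped, since wild type 3 lay above knockout 1, and the difference of 0.66 did not pass (limma adjusted p = 0.169). The 10 measured genes nearest to Mid2 and the 10 nearest to Igbp1 held no gene past the threshold either. Named after their values were seen, among the former was Tsc22d3, a glucocorticoid-induced gene, at -0.32 (limma adjusted p = 0.169), and among the latter Gdpd2, a glycerophosphodiester phosphodiesterase gene, at 0.70 (limma adjusted p = 0.0982).

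Since Mid1 lies on X and reaches into sequence shared with Y, the sex-linked genes of each array were read as well. Xist, the RNA that coats the inactive X in females, was absent on all 8 arrays, at 3.82 to 4.15. The Y-linked helicase gene Ddx3y was present on all 8, at 11.26 to 11.39 in wild type and 11.19 to 11.34 in knockout. Eif2s3y, Kdm5d and Uty, which also lie on Y, were present on all 8 arrays too. A further Y-linked gene, Usp9y, named after its values were seen, was absent on all 8, at 4.48 to 4.86 in wild type and 4.61 to 4.97 in knockout. By these genes no array stood apart, and none of the 11 measured sex-linked genes passed between genotypes (limma adjusted p = 0.234 at lowest).

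The genes linked to Mid1, Mid2 and alpha4 were read from lists chosen with earlier results of these data known. The limma fit of 20666 genes, adjusted by the Benjamini-Hochberg method, called 11, or 0.0532%, with 6 higher (0.0290%) and 5 lower (0.0242%) in the knockout. Of the 19 PP2A catalytic, scaffold and regulatory subunits 1 passed, and it was higher. Ppp2r1b, a scaffold subunit on which the catalytic and regulatory subunits assemble, read 9.78, 9.61, 9.70 and 9.61 in wild type and 10.49, 10.45, 10.54 and 10.24 in knockout, without overlap. The difference was 0.76 (10.43 ± 0.13 against 9.67 ± 0.08, SD, n = 4, limma adjusted p = 0.0171 over all genes). Ppp2r1b lies on chromosome 9, as does Anp32a, and it no longer passed when any 1 array other than knockout 4 was left out (limma adjusted p = 0.0559 to 0.105) or without knockout 2 and knockout 3 (0.138). With the mean of a marker list as covariate, Ppp2r1b passed beside the chondrocyte mean (limma adjusted p = 0.0264). It did not pass beside the muscle, erythroid, B cell, osteoclast or osteoblast mean.

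The catalytic subunits themselves, the proteins that alpha4 holds and MID1 marks for degradation, did not pass and are named for that role, after their values were seen. Ppp2ca read 12.24 to 12.42 in wild type and 12.29 to 12.44 in knockout (difference 0.049, limma adjusted p = 0.744). Ppp2cb read 10.35 to 10.61 in wild type and 10.39 to 10.63 in knockout (difference 0.0085, limma adjusted p = 0.972). Arrays measure RNA, so these values say nothing of the amount of the proteins. Among the regulatory subunits Ppp2r3a, also named after its value was seen, had the largest difference in size, -0.96, and did not pass (limma adjusted p = 0.178). It read lowest on knockout 2 and knockout 3, the arrays that were also lowest in muscle markers, at 8.86 and 9.15 against 10.20 and 10.30 on knockout 1 and knockout 4. Over the 19 genes the median difference was 0.012, with 11 above 0 and 8 below.

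The other lists held no gene past the threshold. Among 18 phosphatases bound by alpha4 and factors that assemble or modify PP2A, the median difference was 0.084. Ptpa, the PP2A activator, read 0.31 higher, Ensa, a phosphorylation-dependent PP2A inhibitor, read 0.22 lower, and the gene listed as C330027C09Rik, now named Cip2a, an inhibitor of PP2A, read 0.44 higher (limma adjusted p = 0.167, 0.186 and 0.195). Chosen after their values were seen, Tiprl, another binder of PP2A catalytic subunits, and Ppp4c and Ppp6c, whose proteins alpha4 binds, read 0.095, 0.17 and -0.070 (limma adjusted p = 0.597, 0.385 and 0.54). At an unadjusted p under 0.05 this list had 3 higher and 1 lower of 18, against 10.1% and 9.26% of all genes.

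Of the 8 measured TRIM and related genes that bind microtubules as Mid1 does, 5 were absent on all 8 arrays, and 2 were present on all. These 2 are the muscle genes Trim54 and Trim63, the latter an atrophy-linked ligase of the sarcomere. Trim54 read 10.67, 10.79, 10.97 and 11.02 in wild type and 10.33, 8.49, 9.13 and 10.48 in knockout. The groups did not overlap, and the difference of -1.26 did not pass (limma adjusted p = 0.171). Trim67, a gene absent on all arrays, read -0.16. Trim63 read -1.20 (limma adjusted p = 0.178) and was also lowest on knockout 2 and knockout 3, where muscle markers were lowest. Mid1 was highest on those 2 arrays.

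Among 7 ubiquitin-conjugating enzymes of the UBE2D and UBE2E families, which supply ubiquitin to MID1, Ube2d1 read 9.03, 9.17, 9.39 and 9.27 in wild type and 8.68, 7.86 and 8.20 on knockout arrays 1 to 3, with knockout 4 highest of the knockouts and just under the lowest wild type. The groups did not overlap, and the difference of -0.78 did not pass (limma adjusted p = 0.16). Ube2e1 read -0.26 and Ube2e3 0.20 (limma adjusted p = 0.159 and 0.185). Of the 8 described partners and substrates of MID1, 7 read higher and 1 lower in the knockout, with a median of 0.12. Mid1ip1, whose protein binds MID1 and stabilises microtubules, read 9.68, 9.55, 9.46 and 9.49 in wild type and 9.94, 9.82, 10.04 and 9.62 in knockout. Its difference was 0.31, with overlapping groups (limma adjusted p = 0.172). Hmg20b read 0.19 higher and Rack1, a scaffold protein gene of the MID1 complex, 0.16 higher, without passing (limma adjusted p = 0.195 and 0.306).

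The mTORC1 arm, which MID1 and alpha4 are described to act on through PP2A, was also without a call. Over 15 genes of the mTORC1 kinase complex and its targets, 5 read higher and 10 lower, with a median of -0.020. The complex inhibitor gene Akt1s1, the repressor gene Tsc1 and the activating GTPase gene Rheb read -0.30, -0.27 and -0.20, all without overlap between the groups (limma adjusted p = 0.16, 0.171 and 0.18). At an unadjusted p under 0.05 there were 2 higher and 3 lower of 15. Over all genes, that unadjusted p was reached by 10.1% higher and 9.26% lower, and the groups did not overlap for 2072 of 20666. Without knockout 4, 12 of the 95 genes in the 8 lists passed (12.6%), 4 higher and 8 lower, while 1786 of all genes passed (8.64%), 4.57% higher and 4.07% lower. Among the 12, named after their values were seen, were Mid1ip1 (0.39), Ptpa (0.38), Ube2d1 (-0.97) and Trim63 (-1.56), at limma adjusted p = 0.0114 to 0.049 over the 12.

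**Figure D4:**
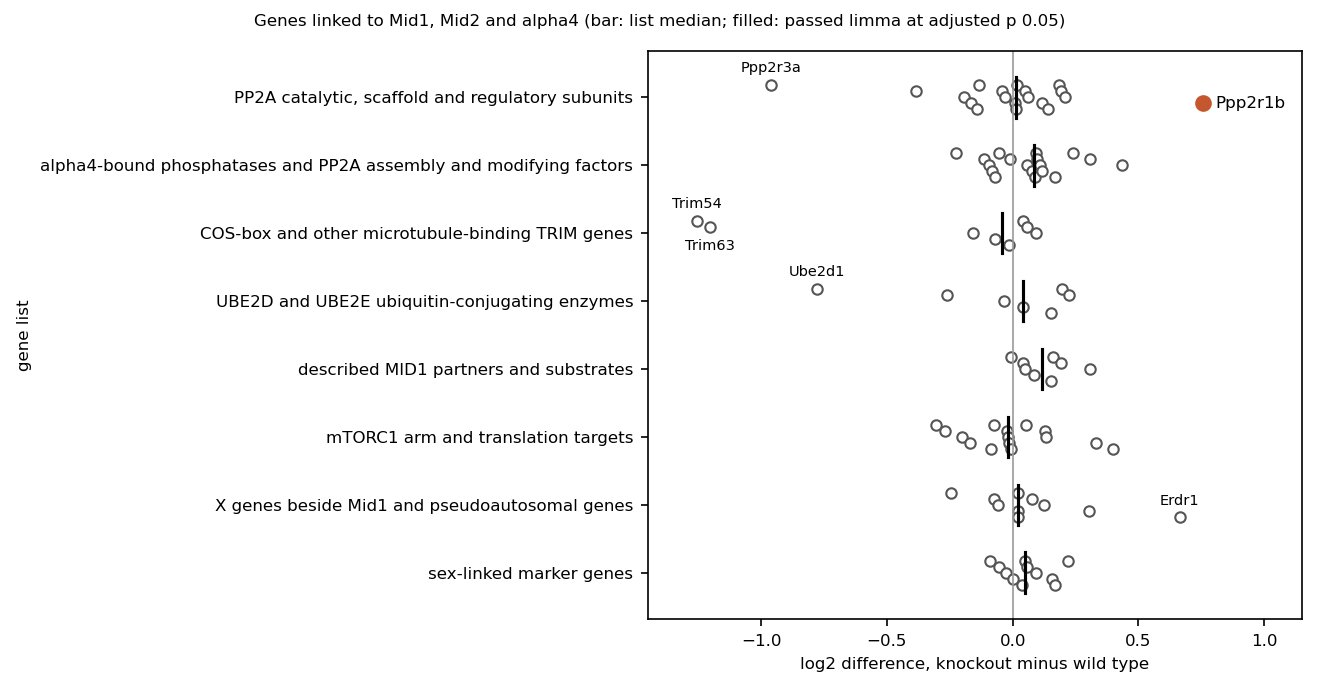
Log2 difference, knockout minus wild type (x axis), of each measured gene in 8 lists (rows), each gene read by its brightest probe set, with a bar at the median of the list. The filled point, Ppp2r1b at 0.76, is the single gene past limma's adjusted p of 0.05, and the list medians lie between -0.044 and 0.12.

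The probe sets most like Mid1 1438239_at across the arrays were sought among other genes. Likeness was taken as the root mean square difference between log2 values centred on their mean over the 8 arrays, over 23218 named probe sets that were present on at least 4 arrays. All 3 nearest belonged to Cadm1, a cell adhesion molecule gene on chromosome 9 like Anp32a, at 0.36, 0.38 and 0.38, followed by 1 probe set each of the pre-B cell gene Vpreb1 (0.39) and the osteocyte gene Phex (0.41). The Cadm1 probe set 1417376_a_at read 9.51 to 9.82 in wild type and 10.14, 10.65, 10.63 and 10.33 on knockout arrays 1 to 4, the same order of knockout arrays as Mid1, with knockout 1 lowest and knockout 2 highest. Cadm1 1417377_at had that order too, while Cadm1 1417378_at was highest on knockout 3, at 11.519 against 11.516 on knockout 2. Vpreb1 was highest on knockout 3 at 10.25 and Phex highest on knockout 3 at 11.67, so their order differed from that of Mid1. All 5 had groups that did not overlap, which the choice by likeness to Mid1 makes no separate result.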

How the data were processed

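RNA of the tibial plateau of 8 mice was measured on Affymetrix arrays, 1 mouse per array, with 4 arrays per genotype. The deposited values are log2 expression values made with RMA, per the submitters' processing notes, and they come with the authors' detection calls (present, marginal or absent) and the authors' log2 fold changes and p-values. From these, 45037 probe sets with an identifier were used, and 64 rows without one were left out. No further normalization was applied. Precision is limited by the 4 arrays per group.

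Genotypes were compared with limma 3.58.1 in R 4.3.3, with Benjamini-Hochberg adjustment at a threshold of 0.05, over all probe sets and over 20666 genes, each read by its brightest probe set. The differences from the authors' deposited log2 fold changes were at most 4.8e-08. The members, the 8 pathway lists and the 10 cell type lists (216 of 228 entries measured) were chosen with earlier results of these data known. Named were all member probe sets, the Anp32a probe sets, list genes past the threshold or otherwise up to 3 of smallest p, Xist and the detected Y-linked genes, and the 5 probe sets most like the brightest Mid1 probe set. Genes named outside that rule are marked as chosen after their values were seen. The gene-level fit was tested on simulated data. Of 50 genes at each change of 0.5, 0.75, 1 and 2 on the log2 scale, 23, 41, 45 and 50 were recovered. There were 7 false among 166 calls. These counts hold for the simulated data only. On the real arrays, leaving out 1 array moved the number of genes past the threshold from 11 to between 1 and 1786. Whether the simulated recovery carries over to such arrays was not tested. Alternatives were another normalization, array weights, a present filter, other summaries of a gene, marker means as covariates, a replicate block and leaving out arrays.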

Additional observations from a re-analysis of the deposited data

Results flagged for a closer look

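Probe set 1422055_at of Mid1, which no array called present, read 4.91 on wild-type array 4, while the other 3 wild-type arrays read 4.76 to 4.79. The gap to the nearest other array was 0.831 of the range of the group, above Dixon's critical value for 4 samples. It was 1 of 72 groups examined.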

How the results depend on the processing

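The Mid1 difference of 1.47 kept its sign in every alternative run. The groups did not overlap, so leaving out arrays could not reverse the sign and could change only the size of the Mid1 difference. It was 1.22 without knockout 2 and knockout 3, 0.94, 1.11 and 1.19 with the osteoblast, osteoclast and muscle means as covariates, and 1.37 to 1.63 with 1 array left out. The other 9 member probe sets ran from -0.13 to 0.28 with 1 array left out and from -0.27 to 0.56 under the remaining alternatives, both ends of the latter with the osteoblast mean as covariate. The count of genes past limma's threshold, 11, was 4 with the replicate block, 1 without knockout 2 and knockout 3, and 1 to 1786 with 1 array left out, the highest without knockout 4. The count of probe sets, 24, was 41 with array weights, 21 with the replicate block, 7 without knockout 2 and knockout 3, and 9 to 3579 with 1 array left out. The count of pathway list genes, 1, was 0 with the replicate block and without knockout 2 and knockout 3, and 0 to 12 with 1 array left out. Ppp2r1b had a limma adjusted p of 0.0648 with the block. Deviations of same-numbered arrays correlated at 0.065, 0.511, -0.339 and 0.303 for numbers 1 to 4, so numbers 2 and 4 deviated together and numbers 1 and 3 did not, and the numbers were not taken as pairs. Uty, at 0.0006, read -0.017 with array weights, -0.015 after quantile normalization, -0.036 without knockout 2 and knockout 3, and -0.051 to 0.077 with 1 array left out. The cause was not tested.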
